A study of Mus musculus with 6 samples.

Results

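Solute carriers are the largest group of membrane transport proteins that carry small molecules, and their gene symbols begin with Slc followed by a family number. The genes described here are all rows of the expression table whose symbol has this form, 196 of 11644 genes. They were counted in RNA of mouse MLL-ENL/NrasG12D leukemia cells, a single acute myeloid leukemia line that carries the MLL-ENL fusion and mutant Nras. One group of 3 libraries came from cells given EPZ015666, an inhibitor of the arginine methyltransferase PRMT5, at 5 µM for 72 h with a second dose on day 2. The other 3 came from cells of the same line given an equal amount of the solvent DMSO for 72 h. The series calls the libraries of a group independent replicates. The labels do not say whether they came from separate cultures, so p-values measure the spread between these libraries, which may be technical.

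Each solute carrier moves its substrate down a gradient, in exchange for another solute, or together with sodium or protons. Blood cells use plasma membrane carriers to take up amino acids, glucose, vitamins and metals and to release lactate, and use carriers of the inner mitochondrial membrane, the Slc25 family, to join cytosolic and mitochondrial metabolism. Macrophages and granulocytes also use lysosomal and phagosomal carriers, which move metals, peptides and nucleosides out of the compartment in which ingested material is broken down.

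Recovered reads per library were 11335948 to 15551525 with EPZ015666 and 15505127 to 19197912 in DMSO, and the solute carrier genes took 0.982 to 1.07% of them. Values are given as normalized counts, which are reads scaled by the size factor of their library, and means carry the SD over the 3 libraries of a group. Of 15 myeloid markers 14 were measured, of which 8 rose and 4 fell (2 to 5 with 1 library left out), with summed normalized counts of 33969 to 38420 with EPZ015666 and 19328 to 22443 in DMSO. Of the 14, 57.1% rose and 28.6% fell, beside 23.6% and 22.9% of all genes. The markers of smallest adjusted p, Lyz2, Csf1r, Itgam and Fcgr3, rose with log2 fold changes of 1.41 to 3.57. Of the 4 that fell, the smaller falls were those of Cebpa (log2 fold change -0.54, limma adjusted p = 0.00277) and Ctsg (log2 fold change -0.31, limma adjusted p = 0.0361). The other 2 fell by 2-fold or more. Changes past the test of 2-fold or more were rises in 5 of the 14 markers and falls in 2. Of the markers of other cells, 0 of 7 lymphoid, 0 of 7 erythroid and 1 of 7 stromal genes were among the genes analysed. That one, Pdgfrb, summed to 3.23 to 7.15 with EPZ015666 and 3.23 to 10.6 in DMSO. In bulk RNA, fewer cells of a type and less RNA per cell cannot be told apart. DMSO library 2 stood apart in some genes of the integrated stress response, given with the amino acid transporters.

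Of the 196 solute carrier genes, 47 rose with EPZ015666, 46 fell and 103 did not pass the test (limma on log2 normalized counts with 1 added, Benjamini-Hochberg adjusted p under 0.05 over all genes). This is 47.4% of them, beside 46.5% of all genes, where 23.6% rose and 22.9% fell. By edgeR 95 passed and by DESeq2 88, beside 46.5% and 42.9% of all genes. Their median log2 fold change by limma was 0.01, against 0.00 over all genes. Changes past the test of 2-fold or more were rises in 19 of the 196 (9.69%) and falls in 7 (3.57%), beside 7.16% and 3.04% of all genes. The libraries of the groups did not overlap for 113 of the 196 (57.7%), beside 56.0% of all genes. By these counts solute carrier genes passed about as often as genes in general. The 6 genes that bear an Slc symbol but are named for a binding partner, a regulator, an opposite-strand gene or a pseudogene (Slc7a6os, Slc4a1ap, Slc2a4rg-ps, Slc9a3r1, Slc36a1os and Slc9a3r2) had 0 past limma's test, 0 by edgeR, 0 by DESeq2 and 1 (Slc9a3r2) at an unadjusted p under 0.05.

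**Figure D1:**
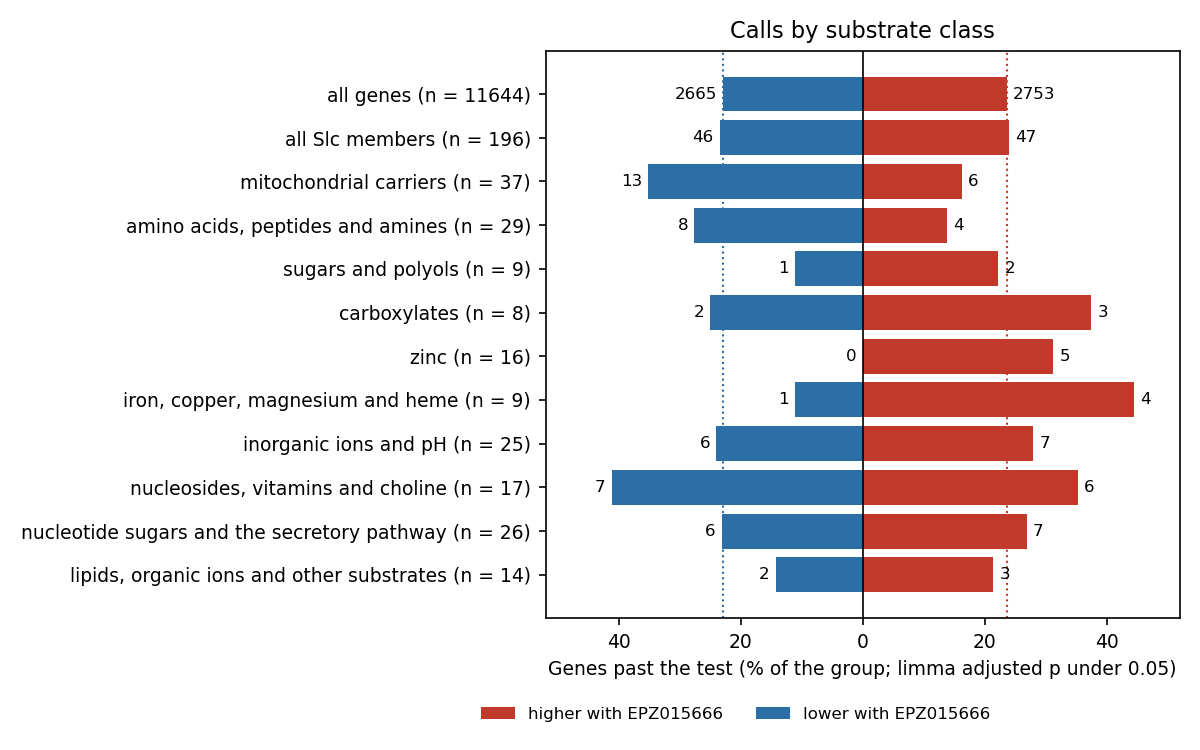
Share of genes past limma's test in each substrate class, with those lower with EPZ015666 to the left of zero and those higher to the right; numbers at the bars are counts and dotted lines mark the shares over all 11644 genes. Of 16 zinc carriers 5 were higher and 0 lower, while of 37 mitochondrial carriers 6 were higher and 13 lower.

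The carriers of iron, copper, magnesium and heme held the largest rises on the log2 scale, Slc11a1 and Slc40a1. Of 9 such genes 4 rose and 1 fell (55.6%, beside 46.5% of all genes), with a median log2 fold change of 0.23. Slc11a1 encodes NRAMP1, a carrier that moves iron and manganese out of the phagosome of macrophages. It had 498, 534 and 559.6 normalized counts with EPZ015666, against 31.8, 35.5 and 40.3 in DMSO. Every EPZ015666 library was far above every DMSO library. The means were 531 ± 30.7 normalized counts with EPZ015666 and 35.9 ± 4.24 in DMSO (SD, n = 3 each), a 14.8-fold rise (log2 fold change 3.86 with an SE of 0.14, adjusted p = 9.34e-09 by limma). The gene lies at chr1:74375195-74386062 on the forward strand of GRCm38. Its promoter window in RefSeq on GRCm38.p6, 250 bases before to 50 after the start, is shown because this was the largest rise among the solute carriers. It is chr1:74374953-74375252, forward strand, and none of its bases is capitalised because it held no match to the 5 motifs searched.
Slc11a1 promoter: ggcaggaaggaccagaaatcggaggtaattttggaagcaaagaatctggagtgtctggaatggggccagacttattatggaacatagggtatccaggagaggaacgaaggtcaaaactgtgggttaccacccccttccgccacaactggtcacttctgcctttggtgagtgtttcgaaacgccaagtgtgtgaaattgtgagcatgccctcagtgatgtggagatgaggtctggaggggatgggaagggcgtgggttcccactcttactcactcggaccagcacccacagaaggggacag

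Slc40a1 encodes ferroportin, the iron exporter of the plasma membrane, and had 71.5, 105 and 97.9 normalized counts with EPZ015666, against 4.89, 12.1 and 6.87 in DMSO. The groups did not overlap, but the DMSO level rested on 28 reads in all. It rose 11.5-fold (log2 fold change 3.43 with an SE of 0.32, adjusted p = 7.71e-06 by limma). Slc31a2, a copper carrier of endosomes, averaged 222 ± 27.3 with EPZ015666 and 92.9 ± 17.9 in DMSO (log2 fold change 1.26, limma adjusted p = 0.000101). Slc41a2, a magnesium carrier, averaged 86.4 ± 6.34 with EPZ015666 and 37.8 ± 3.68 in DMSO (log2 fold change 1.17, limma adjusted p = 0.000286). Both of these genes rose. The iron importer DMT1, encoded by Slc11a2, moved the other way, with 371, 399 and 391 normalized counts with EPZ015666, against 501, 451 and 512 in DMSO. This fall was small (log2 fold change -0.33, limma adjusted p = 0.0134) and missed the threshold without DMSO library 3 (adjusted p = 0.062). The copper importer Slc31a1 (log2 fold change 0.23, limma adjusted p = 0.0923, passed without EPZ015666 library 3 (adjusted p = 0.0229)) and the heme carrier Slc48a1 (log2 fold change 0.14, limma adjusted p = 0.195) did not pass. The mitochondrial iron importer Slc25a37, mitoferrin, had 917 ± 152 with EPZ015666 and 918 ± 34.7 in DMSO (log2 fold change -0.01, limma adjusted p = 0.928). Among 12 solute carrier genes of macrophage metal handling and lysosomes, 4 rose (Slc11a1, Slc40a1, Slc15a3 and Slc37a2) and 4 fell (Slc11a2, Slc38a9, Slc29a3 and Slc17a5). This is 66.7% of them, beside 46.5% of all genes. The call of Slc37a2 was lost without EPZ015666 library 2 or 3 or DMSO library 1 or 3 (adjusted p = 0.0542 to 0.115). The part of the changes in myeloid markers, of which some rose and some fell, in these rises was not tested.

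**Figure D2:**
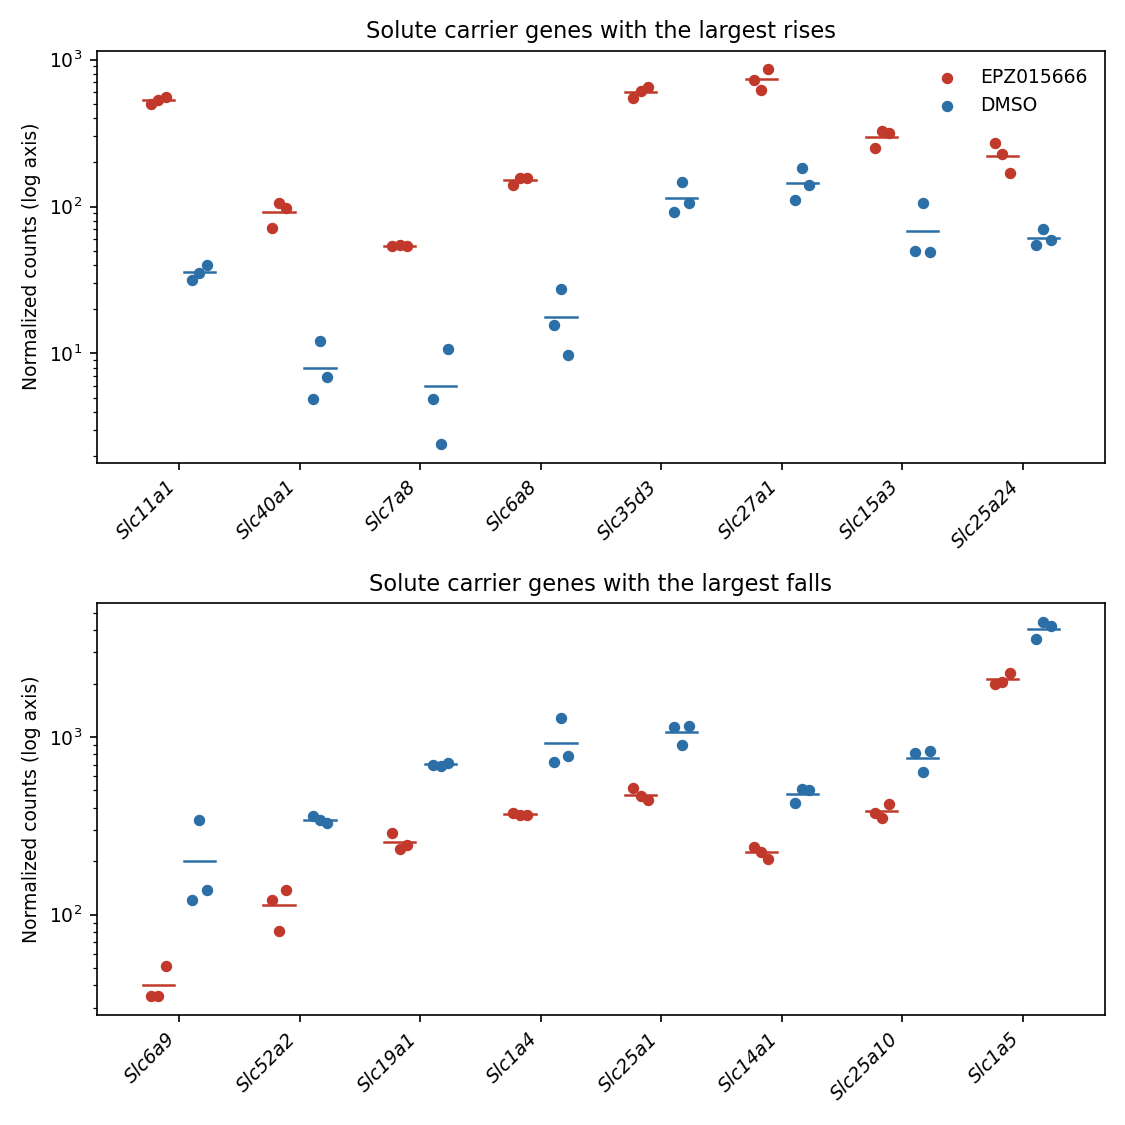
Normalized counts per library (log axis) of the 8 solute carrier genes with the largest rises and the 8 with the largest falls among those past the test with a mean of at least 50 in the higher group and no overlap between the groups. Red points are the 3 EPZ015666 libraries and blue points the 3 DMSO libraries, and lines are their means. The rises run from 14.8-fold for Slc11a1 to 3.63-fold for Slc25a24, and the falls from 4.94-fold for Slc6a9 to 1.93-fold for Slc1a5.

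Among 29 carriers of amino acids, peptides and amines, 4 rose and 8 fell (41.4%, beside 46.5% of all genes), with a median log2 fold change of -0.18. Their summed normalized counts were 35263 to 36839 with EPZ015666 and 40775 to 50338 in DMSO. The falls held importers of glutamine, arginine and essential amino acids. Slc1a5, the ASCT2 glutamine transporter, had 1989.9, 2039 and 2298 normalized counts with EPZ015666, against 3542, 4449 and 4228 in DMSO. It fell 1.93-fold (log2 fold change -0.95 with an SE of 0.10, adjusted p = 2.03e-05 by limma). Slc7a5, the LAT1 light chain that exchanges glutamine for leucine and other large neutral amino acids, had 3389, 2881 and 2892 normalized counts with EPZ015666, against 4743, 7325 and 4983 in DMSO. It fell 1.86-fold (log2 fold change -0.87 with an SE of 0.14, adjusted p = 0.000493 by limma). In both genes all DMSO libraries were above all EPZ015666 libraries. DMSO library 2 was the highest for both.

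Slc7a1, the CAT1 importer of arginine and lysine, had 2808, 2834 and 2560.2 normalized counts with EPZ015666, against 4278, 5376 and 4800.1 in DMSO, and fell 1.76-fold (log2 fold change -0.81, limma adjusted p = 4.62e-05). Slc38a2, the SNAT2 importer of small neutral amino acids, had 4939, 4978 and 4585 normalized counts with EPZ015666, against 6041, 7210.5 and 6457 in DMSO, and fell 1.36-fold (log2 fold change -0.44, limma adjusted p = 0.0021). Its close relative Slc38a1 averaged 4992 ± 472 with EPZ015666 and 5874 ± 207 in DMSO and did not pass (log2 fold change -0.24, limma adjusted p = 0.0505), but passed without EPZ015666 library 1 (adjusted p = 0.0375). Slc1a4, the ASCT1 carrier of alanine, serine and cysteine, had 375, 362 and 363 normalized counts with EPZ015666, against 721, 1287 and 783 in DMSO. DMSO library 2 was again the highest, and the groups did not overlap. The fall was 2.54-fold (log2 fold change -1.29, limma adjusted p = 0.000113), with a log2 fold change of -1.03 without DMSO library 2. Slc6a9, the GlyT1 glycine transporter, had 34.7, 35.0 and 51.7 normalized counts with EPZ015666, against 121, 341 and 137 in DMSO. It held the largest fall among the solute carriers, 4.94-fold (log2 fold change -2.14, limma adjusted p = 0.000289), and 3.20-fold without DMSO library 2. Genes on the opposite strand cover 30.2% of its exons, and the strand setting of the counting is not given in the sources used here.

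Slc7a11 stood apart from these importers. It encodes xCT, which imports cystine in exchange for glutamate, and had 872, 1077 and 944 normalized counts with EPZ015666, against 335, 1101 and 486 in DMSO. DMSO library 2 lay just above the EPZ015666 libraries, and DMSO libraries 1 and 3 lay below all of them. The test was not passed over all libraries (log2 fold change 0.77 with an SE of 0.31, adjusted p = 0.0605 by limma) and was passed without DMSO library 2 (log2 fold change 1.25, limma adjusted p = 5.69e-06). Slc3a2, the 4F2 heavy chain that both LAT1 and xCT need to reach the membrane, had 2788, 2777 and 2648 normalized counts with EPZ015666, against 2622, 4291 and 2656 in DMSO. It did not pass (log2 fold change -0.18, limma adjusted p = 0.359), and without DMSO library 2 its log2 fold change was 0.05.

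Among 9 amino acid transporter genes reported as targets of ATF4, the transcription factor of the integrated stress response, 0 rose and 6 fell by limma. The falls were 66.7% of the list, beside 22.9% of all genes, and its median log2 fold change was -0.81. At an unadjusted p under 0.05, 1 rose (Slc7a11), and by edgeR and by DESeq2 0 rose. Without DMSO library 2, 1 rose (Slc7a11) and 6 fell, with a median of -0.67. The median gene of the list stood 0.70 higher on the log2 scale in DMSO library 2 than in the mean of DMSO libraries 1 and 3. Some of the stress genes showed the same library apart, and others did not. Ddit3, which encodes CHOP, had 361, 368 and 391 normalized counts with EPZ015666, against 171, 1378 and 237 in DMSO. Trib3, a pseudokinase induced with it, had 282, 231 and 225 normalized counts with EPZ015666, against 126, 1376 and 218 in DMSO. In both genes DMSO library 2 was far above every other library, and neither passed the test. Shmt2, a mitochondrial enzyme that makes glycine and folate-bound carbon units from serine, had 3770.3, 3164 and 3345 normalized counts with EPZ015666, against 6220.1, 7170.1 and 6366 in DMSO (log2 fold change -0.94, limma adjusted p = 1.42e-05). Pycr1, an enzyme of proline synthesis, had 51.1, 36.4 and 64.6 normalized counts with EPZ015666, against 279, 323 and 309 in DMSO (log2 fold change -2.59, limma adjusted p = 1.46e-06). DMSO library 2 was close to the other DMSO libraries in both of these genes, which fell. Aldh1l2 (log2 fold change -2.08, limma adjusted p = 5.73e-05) and Phgdh (log2 fold change -0.52, limma adjusted p = 0.000621), enzymes of folate and serine metabolism, fell too. Aldh1l2 had 193, 204 and 184 normalized counts with EPZ015666, against 559, 1417 and 696 in DMSO, so here DMSO library 2 was far above the other DMSO libraries. Of 16 integrated stress response genes 2 rose and 6 fell (50%, beside 46.5% of all genes), and without DMSO library 2, 5 rose and 6 fell. The part of this library's stress level in the amino acid results was not tested beyond these values without it.

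**Figure D3:**
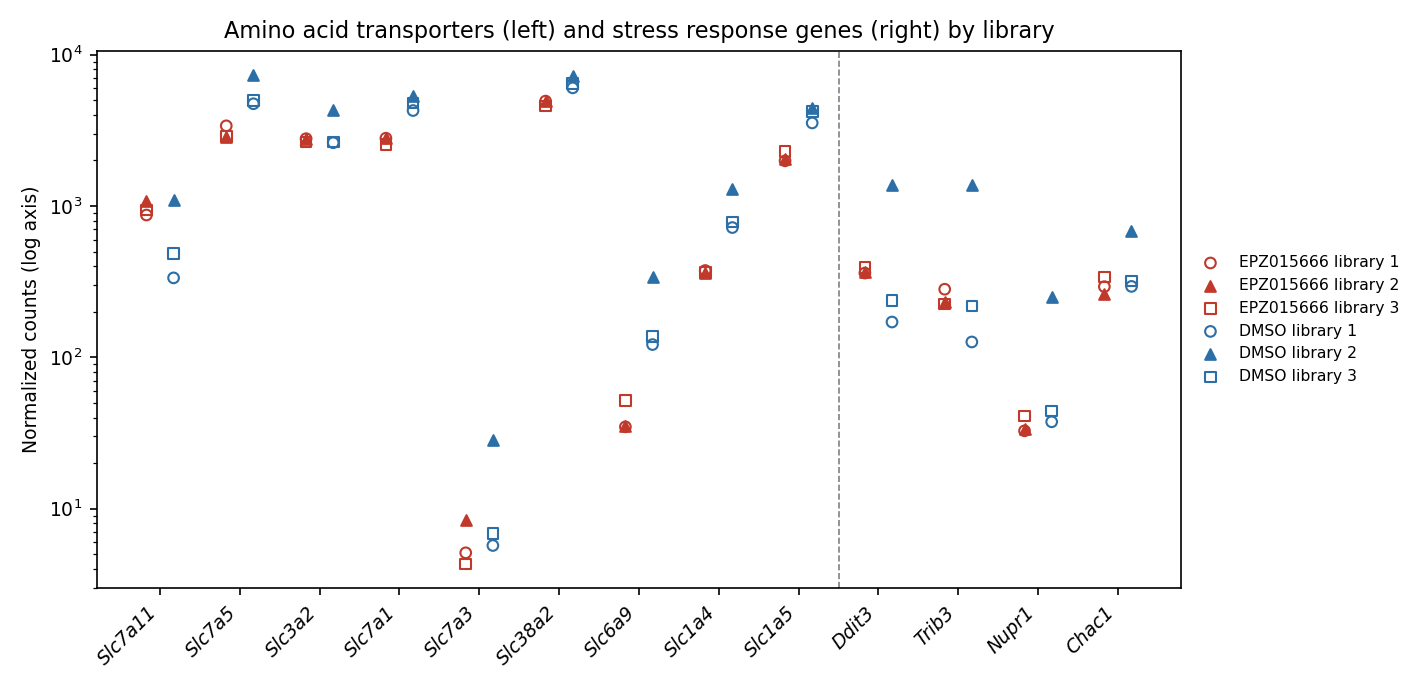
Normalized counts per library (log axis) of 9 amino acid transporter genes reported as ATF4 targets and of 4 stress response genes, with EPZ015666 libraries in red to the left of the DMSO libraries in blue and one symbol per library number. DMSO library 2 (filled blue triangle) is the highest of the DMSO libraries for each gene shown. Numbers are those of the titles, and the labels do not say whether they pair libraries.

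The Slc7a11 promoter window is shown because its fold change had the opposite sign to those of the ATF4-reported transporters that fell. It is chr3:50443564-50443863 on the reverse strand of GRCm38.p6, from RefSeq, and capitals mark TGATGCAA, the core of the composite site of ATF4 and C/EBP factors, read on either strand. This motif was added after the sequences had been seen. It starts 66 and 47 bases before the start of transcription.
Slc7a11 promoter: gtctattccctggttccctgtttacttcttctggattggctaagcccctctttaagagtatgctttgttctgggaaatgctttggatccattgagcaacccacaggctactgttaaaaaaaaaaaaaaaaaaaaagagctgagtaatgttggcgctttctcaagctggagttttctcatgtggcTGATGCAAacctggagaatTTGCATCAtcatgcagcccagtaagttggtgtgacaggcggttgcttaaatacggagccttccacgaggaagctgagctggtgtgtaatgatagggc
The same letters, in capitals, begin 4 bases before the start of Slc1a4 and run across it (chr11:20332685-20332742, reverse strand).
Slc1a4 site: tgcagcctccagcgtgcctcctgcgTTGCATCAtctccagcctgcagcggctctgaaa
Windows were given for 148 of the 196 solute carrier genes and for 9102 of all genes. Some genes had several windows and counted if any of these held a motif. TGATGCAA stood in 4 solute carrier genes (Slc1a4, Slc50a1, Slc7a11 and Slc7a7), 2.70% of those with a window, and in 0.824% of all genes. Of the 9 ATF4-reported transporters 6 had a window and 2 held it. Among solute carriers with a window, 0 of 37 that rose, 1 of 36 that fell and 3 of 75 that did not pass held it. Because the motif was chosen with these sequences seen, the shares are no test of an excess. A match is a description of the letters and not of binding.

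Several amino acid carriers rose. Slc7a8, the LAT2 exchanger of neutral amino acids, had 54.1, 54.5 and 53.8 normalized counts with EPZ015666, against 4.89, 2.42 and 10.8 in DMSO. The EPZ015666 libraries were close to one another and all above DMSO, where counts were low. The rise was 8.97-fold (log2 fold change 3.15 with an SE of 0.41, adjusted p = 8.42e-05 by limma), and 14.8-fold without DMSO library 3. Slc6a8, the creatine importer, had 139.9, 157 and 157 normalized counts with EPZ015666, against 15.5, 27.4 and 9.82 in DMSO, an 8.60-fold rise (log2 fold change 3.14, limma adjusted p = 8.82e-06). Slc15a3, which exports histidine and peptides from lysosomes of immune cells, had 251, 326 and 314 normalized counts with EPZ015666, against 49.7, 105 and 49.1 in DMSO, a 4.37-fold rise (log2 fold change 2.20, limma adjusted p = 3.61e-05). The groups of both genes did not overlap. Tmem132a on the opposite strand covers 28.1% of the Slc15a3 exons. Slc6a6, the taurine importer, averaged 4496 ± 212 with EPZ015666 and 3450.0 ± 123 in DMSO, a small rise (log2 fold change 0.38, limma adjusted p = 0.00214). Slc43a2, the LAT4 carrier, averaged 1215 ± 53.5 with EPZ015666 and 1096 ± 101 in DMSO and did not pass (log2 fold change 0.15, limma adjusted p = 0.187). Slc38a9, the arginine sensor of the lysosome, fell (log2 fold change -0.69, limma adjusted p = 0.00118).

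Of 37 mitochondrial carriers of the Slc25 family 6 rose (16.2%, beside 23.6% of all genes) and 13 fell (35.1%, beside 22.9%), an imbalance that was not tested, with a median log2 fold change of -0.07. Slc25a1, which exports citrate for fatty acid synthesis, had 515, 467 and 441 normalized counts with EPZ015666, against 1143, 900.1 and 1155 in DMSO. It fell 2.25-fold (log2 fold change -1.16 with an SE of 0.11, adjusted p = 9.97e-06 by limma). Slc25a10, which exchanges malate or succinate for phosphate, had 376, 349.6 and 421 normalized counts with EPZ015666, against 809, 637 and 837 in DMSO, and fell 1.99-fold (log2 fold change -0.99 with an SE of 0.12, adjusted p = 5.42e-05 by limma). In both genes the lowest DMSO library was well above the highest EPZ015666 library. Slc25a11, the oxoglutarate and malate carrier, fell to 1101 with EPZ015666 against 1519 in DMSO (log2 fold change -0.46, limma adjusted p = 0.000493). Slc25a12, an aspartate and glutamate carrier that works with it in the malate-aspartate shuttle, fell by less (log2 fold change -0.27, limma adjusted p = 0.0315). That call was lost without EPZ015666 library 2 or 3 or DMSO library 1 or 3 (adjusted p = 0.057 to 0.148). Its paralog Slc25a13 averaged 1828 ± 251 with EPZ015666 and 1584 ± 96.4 in DMSO and did not pass (log2 fold change 0.20, limma adjusted p = 0.137), but passed without EPZ015666 library 3 (adjusted p = 0.0146).

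Slc25a51, the importer of NAD+, fell to 1543 with EPZ015666 against 1991 in DMSO (log2 fold change -0.37, limma adjusted p = 0.00361). Slc25a32, which imports folate and FAD, fell to 347 with EPZ015666 against 466 in DMSO (log2 fold change -0.43, limma adjusted p = 0.00455). Slc25a39, the glutathione importer, fell to 1468 with EPZ015666 against 1959 in DMSO (log2 fold change -0.42, limma adjusted p = 0.00224), and its paralog Slc25a40 to 93.5 with EPZ015666 against 152 in DMSO (log2 fold change -0.69, limma adjusted p = 0.00505). This pair moved the same way. The coenzyme A carrier Slc25a42 fell at a low level, 14.2 with EPZ015666 against 28.9 in DMSO. Slc25a15, the ornithine carrier, fell as well (log2 fold change -0.41, limma adjusted p = 0.0112). The call of Slc25a42 was lost without DMSO library 3 (adjusted p = 0.093), and that of Slc25a15 without DMSO library 1 (adjusted p = 0.0544).

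Slc25a24, a calcium-regulated carrier of ATP-Mg and phosphate, had 269, 228 and 170.0 normalized counts with EPZ015666, against 54.6, 70.2 and 58.9 in DMSO. All EPZ015666 libraries were above all DMSO libraries. The rise was 3.63-fold (log2 fold change 1.82 with an SE of 0.18, adjusted p = 1.42e-05 by limma), while Slc25a23, a paralog of the same activity, fell at a low level to 40.9 with EPZ015666 against 63.5 in DMSO (log2 fold change -0.62, limma adjusted p = 0.0218). That call was lost without EPZ015666 library 2 or DMSO library 3 (adjusted p = 0.0746 to 0.106). The ADP/ATP translocases, which exchange ATP made in the matrix for cytosolic ADP, were measured as a pair. Slc25a4 (ANT1) had 2798, 2994 and 2739 normalized counts with EPZ015666, against 1946, 1822 and 1852 in DMSO, and rose 1.52-fold (log2 fold change 0.60, limma adjusted p = 8.22e-05). Slc25a5 (ANT2) had 12246, 12600.5 and 10862 normalized counts with EPZ015666, against 11941, 10164 and 10482 in DMSO and did not pass (log2 fold change 0.13, limma adjusted p = 0.316). These 2 genes are close in sequence, and how reads that match several places were treated is not given in the sources used here. Per kb of exon, Slc25a5 was the most abundant solute carrier, with 7231 normalized counts per kb with EPZ015666 and 6599 in DMSO, and Slc25a4 had 1208 with EPZ015666 and 796 in DMSO. Slc25a20, which carries acylcarnitines for fatty acid oxidation, averaged 253 ± 20.8 with EPZ015666 and 178 ± 9.67 in DMSO and rose (log2 fold change 0.50, limma adjusted p = 0.0043). Slc25a3, the phosphate carrier, rose over all libraries (log2 fold change 0.24, limma adjusted p = 0.0352) and lost the call without EPZ015666 library 1 or 2 or DMSO library 1, 2 or 3 (adjusted p = 0.0643 to 0.11).

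**Figure D4:**
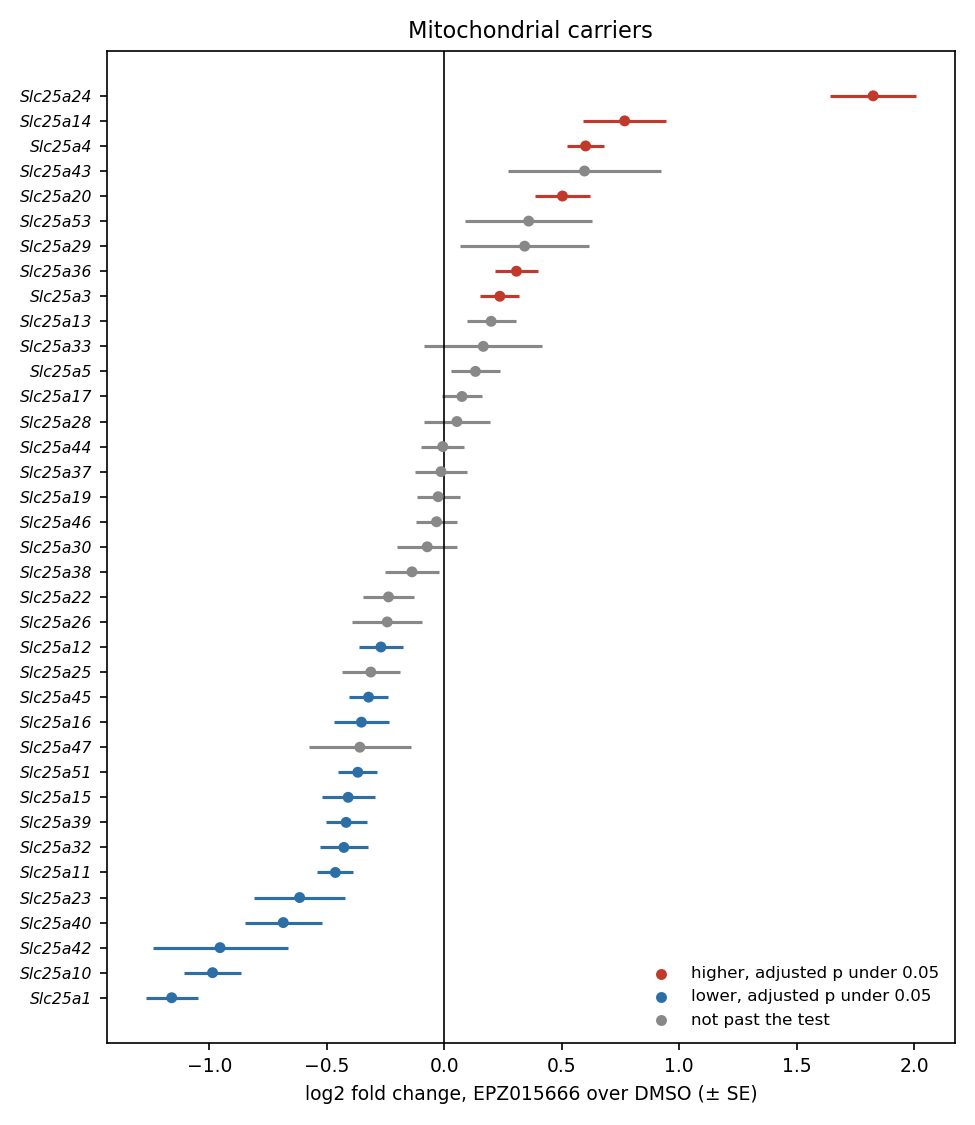
Log2 fold change, EPZ015666 over DMSO, of the 37 mitochondrial carriers with bars of 1 SE from limma, ordered by fold change. Red marks the 6 that were higher past the test, blue the 13 that were lower, and grey those that did not pass.

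Among 17 carriers of nucleosides, vitamins and choline, 6 rose and 7 fell (76.5%, beside 46.5% of all genes). Their median log2 fold change was -0.43, the lowest of the 10 transporter classes. Slc19a1, the reduced folate carrier that also takes up methotrexate, had 288, 234 and 246 normalized counts with EPZ015666, against 699.5, 687 and 716 in DMSO. The libraries of each group were tight and far apart. It averaged 256 ± 28.5 with EPZ015666 and 701 ± 14.4 in DMSO (SD, n = 3 each), a 2.74-fold fall (log2 fold change -1.45 with an SE of 0.10, adjusted p = 1.07e-06 by limma). Its relative Slc19a2, the thiamine importer, moved the other way with 860.1, 902 and 829 normalized counts with EPZ015666, against 395, 325 and 370.1 in DMSO, a 2.38-fold rise (log2 fold change 1.25 with an SE of 0.10, adjusted p = 2.24e-06 by limma). Slc52a2, a riboflavin importer, had 121, 81.1 and 138 normalized counts with EPZ015666, against 359, 341 and 327 in DMSO, and fell 3.03-fold (log2 fold change -1.62 with an SE of 0.17, adjusted p = 2.22e-05 by limma). The other riboflavin importer measured, Slc52a3, was low at 15.8 ± 5.39 with EPZ015666 and 12.8 ± 5.10 in DMSO and did not pass (log2 fold change 0.29, limma adjusted p = 0.559).

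All 3 equilibrative nucleoside transporters measured fell. Slc29a1 (ENT1), the main nucleoside carrier of the plasma membrane, had 1482, 1439 and 1726 normalized counts with EPZ015666, against 2132, 2033 and 2059 in DMSO (log2 fold change -0.43, limma adjusted p = 0.00194). Slc29a3, the lysosomal form, had 243, 291 and 248 normalized counts with EPZ015666, against 377, 405 and 426 in DMSO (log2 fold change -0.63, limma adjusted p = 0.000719). Slc29a2 averaged 56.9 ± 3.59 with EPZ015666 and 86.0 ± 14.3 in DMSO (log2 fold change -0.58, limma adjusted p = 0.0196) and its call was lost without EPZ015666 library 1 or 2 or DMSO library 3 (adjusted p = 0.0537 to 0.102). The 3 genes thus moved the same way. Slc43a3, a purine nucleobase carrier, had 1016, 1001 and 1022 normalized counts with EPZ015666, against 1629.8, 1992 and 1613 in DMSO, and fell 1.72-fold (log2 fold change -0.78, limma adjusted p = 5.15e-05). Slc5a6, which takes up biotin and pantothenate, fell to 137 with EPZ015666 against 217 in DMSO (log2 fold change -0.66, limma adjusted p = 0.0024). Rises were seen for both choline transporter-like genes, Slc44a1 with 109 ± 13.2 with EPZ015666 and 44.3 ± 10.1 in DMSO (log2 fold change 1.29, limma adjusted p = 0.000295) and Slc44a2 with 6450.3 ± 899.5 with EPZ015666 and 5056 ± 266 in DMSO (log2 fold change 0.34, limma adjusted p = 0.0186). The Slc44a2 call was lost without EPZ015666 library 2 or 3 (adjusted p = 0.0521 to 0.0536). Slc23a2, which imports ascorbate, rose to 658 with EPZ015666 against 459.8 in DMSO (log2 fold change 0.53, limma adjusted p = 0.00271). Slc23a3 passed the test with 3 reads in DMSO in all, so no fold is given; its libraries had 11.2, 5.59 and 9.69 normalized counts with EPZ015666, against 1.63, 0.807 and 0 in DMSO.

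Of 9 sugar and polyol carriers 2 rose and 1 fell (33.3%, beside 46.5% of all genes), with a median log2 fold change of 0.07. Slc2a1 (GLUT1), the basal glucose importer, had 1088, 1092 and 1078 normalized counts with EPZ015666, against 629, 669 and 593 in DMSO. Neither group had a library near the other, and the rise was 1.72-fold (log2 fold change 0.79 with an SE of 0.08, adjusted p = 1.93e-05 by limma). Slc2a6 (GLUT6) rose by less (log2 fold change 0.38, limma adjusted p = 0.00302), and Slc2a8 (GLUT8), an intracellular hexose carrier, fell to 147 with EPZ015666 against 266 in DMSO (log2 fold change -0.85, limma adjusted p = 0.000317). Slc2a3 (GLUT3), a glucose importer of high affinity, had 204, 207 and 186 normalized counts with EPZ015666, against 135, 291 and 129 in DMSO. DMSO library 2 was above the EPZ015666 libraries and the other DMSO libraries below them. The test was not passed (log2 fold change 0.21, limma adjusted p = 0.507) but was passed without DMSO library 2 (log2 fold change 0.59, limma adjusted p = 0.0032).

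Monocarboxylate carriers split by member. Of 8 carboxylate carriers 3 rose and 2 fell (62.5%, beside 46.5% of all genes). Of those that rose, 1 averaged 50 or more normalized counts over all libraries. The class takes in the whole Slc16 family by symbol, also Slc16a10, whose substrates are amino acids. Slc16a1 (MCT1), which carries lactate and pyruvate with protons, had 1468, 1558 and 1311 normalized counts with EPZ015666, against 2365, 2226 and 2263 in DMSO, and fell 1.58-fold (log2 fold change -0.66 with an SE of 0.09, adjusted p = 8.13e-05 by limma). Slc16a3 (MCT4), the lactate exporter of glycolytic cells, had 19.4, 18.2 and 19.4 normalized counts with EPZ015666, against 4.89, 9.69 and 5.89 in DMSO, a rise at a low level (log2 fold change 1.40, limma adjusted p = 0.00768). Slc16a10 (TAT1), which carries aromatic amino acids, had 3525, 3392 and 2885 normalized counts with EPZ015666, against 1901, 1684 and 1766 in DMSO, and rose 1.83-fold (log2 fold change 0.87, limma adjusted p = 2.26e-05). The groups of all 3 genes were apart. Slc16a7 (MCT2) fell by less (log2 fold change -0.37, limma adjusted p = 0.0125), and Slc13a3, a sodium-coupled dicarboxylate carrier, rose at a low level (log2 fold change 1.30, limma adjusted p = 0.00629). Slc16a6 averaged 1709 ± 80.3 with EPZ015666 and 1685 ± 141 in DMSO and did not pass (log2 fold change 0.02, limma adjusted p = 0.845). Basigin (Bsg), the chaperone of MCT1 and MCT4, averaged 3174 ± 159 with EPZ015666 and 2776 ± 252 in DMSO and did not pass (log2 fold change 0.20, limma adjusted p = 0.0892).

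Of 16 zinc carriers 5 rose and 0 fell (31.25% passed, beside 46.5% of all genes), with a median log2 fold change of 0.14. The share that rose was 31.25%, beside 23.6% of all genes, and 22.9% of all genes fell. None fell by limma at an unadjusted p under 0.05, by edgeR or by DESeq2 either. Slc39a14 (ZIP14), which imports zinc and iron, had 1466, 1491 and 1284 normalized counts with EPZ015666, against 688, 1206 and 649 in DMSO. DMSO library 2 was nearer to the EPZ015666 libraries than to the other DMSO libraries, but below them. The rise was 1.67-fold (log2 fold change 0.79, limma adjusted p = 0.00443), with a log2 fold change of 1.08 without that library. Slc39a13 (ZIP13), which moves zinc out of the secretory pathway, had 217, 196 and 227 normalized counts with EPZ015666, against 137, 123 and 122 in DMSO, a 1.68-fold rise (log2 fold change 0.74, limma adjusted p = 0.000594). The other rises were small, with log2 fold changes of 0.33 for Slc30a6, 0.26 for Slc39a6 and 0.26 for Slc39a1, each with calls lost when 1 library was left out. They were lost for Slc30a6 without EPZ015666 library 2 or DMSO library 1 (adjusted p = 0.0669 to 0.0712), for Slc39a6 without EPZ015666 library 2 or DMSO library 1 or 3 (adjusted p = 0.0576 to 0.0938) and for Slc39a1 without EPZ015666 library 1 or 3 or DMSO library 1, 2 or 3 (adjusted p = 0.0502 to 0.0718). Without DMSO library 1 the zinc carriers counted 2 rises, and without DMSO library 3 or EPZ015666 library 2 they counted 3. Slc39a7 (ZIP7), which releases zinc from the endoplasmic reticulum, averaged 2756 ± 75.1 with EPZ015666 and 2500.3 ± 48.8 in DMSO and did not pass (log2 fold change 0.14, limma adjusted p = 0.14). A predicted gene on the same strand covers 80.7% of its exons.

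Among 25 carriers of inorganic ions and pH regulators, 7 rose and 6 fell (52%, beside 46.5% of all genes), with a median log2 fold change of 0.16. Slc20a1 (PiT1), the sodium-phosphate importer, had 2058, 2134 and 2215 normalized counts with EPZ015666, against 1164, 1643 and 1390.2 in DMSO, and rose 1.53-fold (log2 fold change 0.62, limma adjusted p = 0.00083). Its relative Slc20a2 (PiT2) averaged 219 ± 5.18 with EPZ015666 and 290.0 ± 38.4 in DMSO and fell (log2 fold change -0.39, limma adjusted p = 0.0194). That call was lost without DMSO library 1 or 3 (adjusted p = 0.0527 to 0.1). Slc4a7, a sodium-bicarbonate importer, had 2520.0, 2573 and 2292 normalized counts with EPZ015666, against 1660.0, 1654 and 1901 in DMSO, a small rise (log2 fold change 0.50, limma adjusted p = 0.000651). Among sodium-proton exchangers, Slc9a7 of the trans-Golgi network rose to 887 with EPZ015666 against 573 in DMSO (log2 fold change 0.63, limma adjusted p = 0.000292). Slc9a5, Slc9a8 and Slc9a9 fell, with log2 fold changes of -0.79, -0.54 and -0.38 in that order. The Slc9a9 call was lost without EPZ015666 library 1 or 2 or DMSO library 2 or 3 (adjusted p = 0.0659 to 0.101). The sodium-calcium exchangers split as well. Slc8a1 (NCX1) of the plasma membrane fell to 700.3 with EPZ015666 against 1033 in DMSO (log2 fold change -0.56, limma adjusted p = 0.000342), and Slc8b1 (NCLX) of mitochondria rose to 781 with EPZ015666 against 505 in DMSO (log2 fold change 0.62, limma adjusted p = 0.000812). Slc12a4 (KCC1), a potassium-chloride exporter, rose to 670.3 with EPZ015666 against 428 in DMSO (log2 fold change 0.65, limma adjusted p = 0.000631).

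The class of nucleotide sugar and secretory pathway carriers held 7 rises and 6 falls among 26 genes (50%, beside 46.5% of all genes). Its median log2 fold change was 0.07. Slc35d3, which is needed in mice for platelet dense granules, had 551, 611 and 654 normalized counts with EPZ015666, against 92.1, 147 and 106 in DMSO. All EPZ015666 libraries were far above DMSO, and the rise was 5.26-fold (log2 fold change 2.41 with an SE of 0.16, adjusted p = 6.03e-07 by limma). Apart from it the changes were small, between log2 fold changes of -0.61 and 0.69 among those past the test. Slc35a1, which supplies the Golgi with CMP-sialic acid, rose to 393 with EPZ015666 against 269 in DMSO (log2 fold change 0.54, limma adjusted p = 0.0037). Slc35d1, which brings UDP-glucuronic acid into the endoplasmic reticulum, rose to 108 with EPZ015666 against 66.5 in DMSO (log2 fold change 0.69, limma adjusted p = 0.00353). Both of these carriers supply sugars for glycan chains. Slc35c1, which brings GDP-fucose into the Golgi, fell to 203 with EPZ015666 against 309 in DMSO (log2 fold change -0.61, limma adjusted p = 0.00174). Slc35b2, a carrier of the sulfate donor PAPS, fell to 924 with EPZ015666 against 1163 in DMSO (log2 fold change -0.33, limma adjusted p = 0.0067), while its relative Slc35b3 rose (log2 fold change 0.52, limma adjusted p = 0.00872). Slc37a4, the glucose 6-phosphate translocase of the endoplasmic reticulum, fell to 519 with EPZ015666 against 689 in DMSO (log2 fold change -0.41, limma adjusted p = 0.00229). Slc35e1 and Slc35a3 had the highest means of the class among those that did not pass, with log2 fold changes of -0.01 and 0.03.

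Of 14 carriers of lipids, organic ions and other substrates 3 rose and 2 fell (35.7%, beside 46.5% of all genes). Of those that rose, 1 averaged 50 or more normalized counts over all libraries. That one, Slc27a1 (FATP1), takes up long-chain fatty acids and had 728, 617 and 857 normalized counts with EPZ015666, against 110.1, 182 and 139 in DMSO. The groups were far apart, and the rise was 5.11-fold (log2 fold change 2.36 with an SE of 0.17, adjusted p = 1.42e-06 by limma). Slc27a4 of the same family averaged 353 ± 44.9 with EPZ015666 and 366 ± 32.2 in DMSO and did not pass (log2 fold change -0.05, limma adjusted p = 0.732). Slc22a4, the ergothioneine importer, had 20.4, 18.2 and 39.8 normalized counts with EPZ015666, against 4.08, 0.807 and 4.91 in DMSO (log2 fold change 2.76, limma adjusted p = 0.00114), and its DMSO level rested on 11 reads. Slc18a1, a vesicular monoamine carrier, had 46.0, 40.6 and 56.0 normalized counts with EPZ015666, against 19.6, 5.65 and 11.8 in DMSO (log2 fold change 2.00, limma adjusted p = 0.00114). Slc14a1, a urea channel known from red cells and kidney, had 240.0, 227 and 206 normalized counts with EPZ015666, against 426, 509 and 503 in DMSO. No erythroid marker was among the genes analysed. It fell 2.14-fold (log2 fold change -1.09 with an SE of 0.11, adjusted p = 1.69e-05 by limma). Slc17a5 (sialin), which exports sialic acid from lysosomes, averaged 216 ± 5.01 with EPZ015666 and 283 ± 7.91 in DMSO and fell (log2 fold change -0.39, limma adjusted p = 0.00893).

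Members of one family moved in opposite directions in 14 families. The 190 genes that are transporters by name fell into 46 families by number, 34 of them with at least 2 members. Of these 34, 14 held both a rise and a fall, 12 held rises without a fall, 6 held falls without a rise and 2 held neither. The folate and thiamine carriers Slc19a1 and Slc19a2, the phosphate importers Slc20a1 and Slc20a2 and the metal carriers Slc11a1 and Slc11a2 each split in this way. Some splits rested on a single call that was lost in fits with 1 library left out. These were the falls of Slc11a2 and Slc20a2 and the rises of Slc5a5 and Slc37a2. Over all genes 23.6% rose and 22.9% fell. How often other gene families split was not tested.

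**Figure D5:**
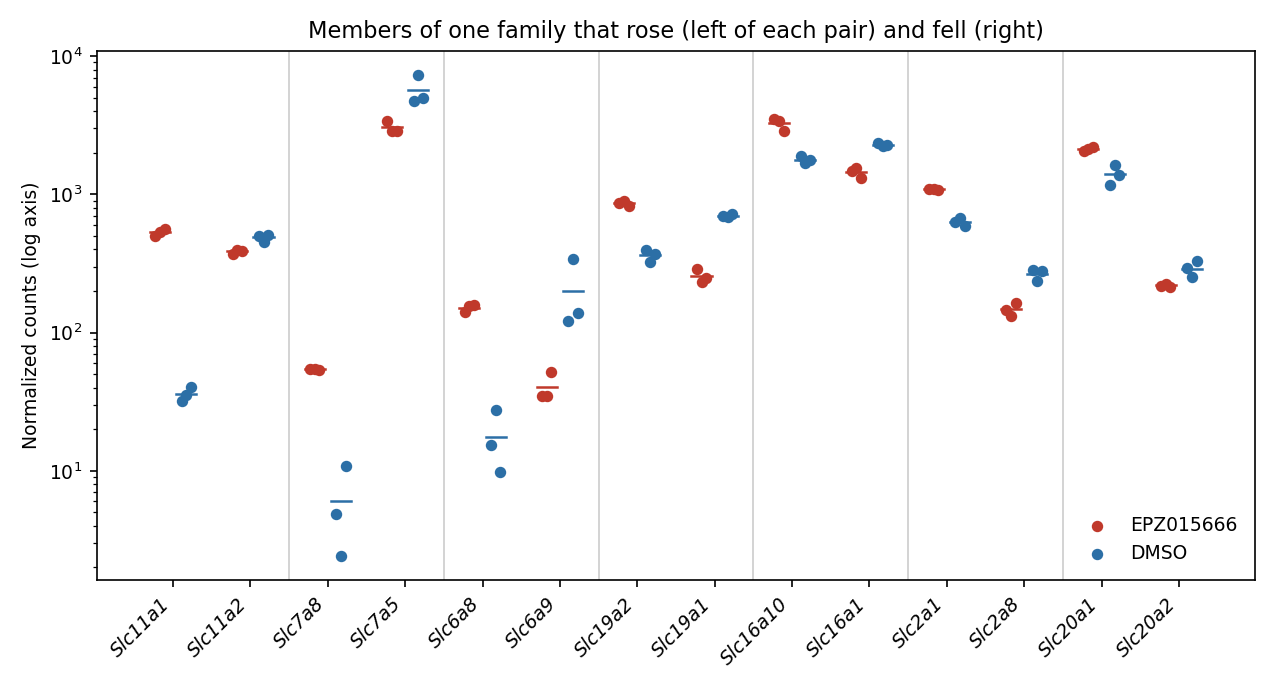
Normalized counts per library (log axis) of 7 pairs from split families, chosen after their values were seen, with the member that rose left of the member that fell. Red points are the 3 EPZ015666 libraries, blue points the 3 DMSO libraries and lines their means. In each pair EPZ015666 lies above DMSO for the left gene and below it for the right gene.

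Transporters and transporter chaperones without an Slc symbol gave 7 rises and 5 falls among 34 measured (35.3%, beside 46.5% of all genes). Their median log2 fold change was 0.16. Ank, which exports ATP and pyrophosphate, rose to 4214 with EPZ015666 against 2624 in DMSO (log2 fold change 0.70, limma adjusted p = 0.000761), and Cln3 of the lysosome rose to 899 with EPZ015666 against 510.1 in DMSO (log2 fold change 0.82, limma adjusted p = 0.000296). Ucp2, an uncoupling protein of the same fold as the Slc25 carriers, fell to 1557 with EPZ015666 against 2489 in DMSO (log2 fold change -0.68, limma adjusted p = 4.63e-05). Spns3 (log2 fold change -1.65, limma adjusted p = 2.87e-06) and the organic anion carrier Slco4a1 (log2 fold change -0.97, limma adjusted p = 1.56e-05) fell too.

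Palindromic E-boxes (CACGTG, which reads alike on both strands and whose last letters TG can also begin any of the other motifs) stood in the promoter windows of 28 solute carrier genes, 18.9% of those with a window, beside 12.04% of all genes. By window, E-boxes stood in 14.9% of the 202 windows of solute carriers and in 10.1% of the 11528 windows of all genes. They stood in 7 of 37 solute carriers that rose, 5 of 36 that fell and 16 of 75 that did not pass. Short stretches are shown for 5 genes past the test, chosen after their values were seen, with the E-box in capitals, from RefSeq on GRCm38.p6. Slc20a1, Slc27a1 and Slc29a1 had several windows, of which not all held an E-box. Of the other members described above, Slc31a2, Slc13a3, Slc22a4, Slc25a15 and Slc25a13 also held one. Slc20a1 held a pair, at chr2:129198573-129198628 and chr2:129198726-129198781 on the forward strand, and rose.
Slc20a1 distal E-box: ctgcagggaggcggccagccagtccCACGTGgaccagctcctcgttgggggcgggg
Slc20a1 proximal E-box: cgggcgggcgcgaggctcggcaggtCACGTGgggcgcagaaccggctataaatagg
Slc27a1 rose too, with its E-box in chr8:71570367-71570422, forward strand.
Slc27a1 E-box: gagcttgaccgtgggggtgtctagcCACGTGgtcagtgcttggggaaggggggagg
Slc16a1 (chr3:104638439-104638494, forward strand), Slc25a1 (chr16:17928428-17928469, reverse strand) and Slc29a1 (chr17:45595291-45595346, reverse strand) fell.
Slc16a1 E-box: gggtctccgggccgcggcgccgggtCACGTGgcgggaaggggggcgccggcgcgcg
Slc25a1 E-box: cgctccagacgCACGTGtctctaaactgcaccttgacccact
Slc29a1 E-box: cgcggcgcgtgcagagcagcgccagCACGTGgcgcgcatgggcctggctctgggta
The other motifs were searched on both strands too. TGCGCNC, the core of the metal response element, stood in 29.1% of solute carrier genes and 30.2% of all genes. TGACTCA, the AP-1 site, stood in 4.05% and 4.37%. TGATGNAAT, a C/EBP-ATF site that can overlap TGATGCAA, stood in 1 solute carrier gene, Slc23a3, and in 0.494% of all genes.

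Of the 196 genes 38 had a mean under 50 normalized counts over all libraries, and 9 of these rose and 2 fell. Of the 47 that rose, 6 rested on 30 or fewer DMSO reads in all. Of the 93 past the test, 71 passed in every fit that left out 1 library, 36 of them higher and 35 lower with EPZ015666. GENCODE M21 on GRCm38 lists 371 protein-coding genes with an Slc symbol, of which 194 were in the table and 177 were not analysed here. Other members past the test included Slc25a14, Slc25a36, Slc35e2, Slc35f6, Slc46a1 and Slc5a5, which rose by log2 fold changes of 0.28 to 1.77, and Slc25a16, Slc25a45, Slc32a1, Slc35c2, Slc35e3, Slc37a1 and Slc4a8, which fell with log2 fold changes of -1.54 to -0.30. Slc5a5, Slc32a1 and Slc46a1 were low, averaging 8.05, 6.36 and 15.2 normalized counts over all libraries in that order. Among the members of highest mean in their classes that did not pass were also Slc38a10, Slc45a4, Slc16a13, Slc30a5, Slc4a2, Slc46a3 and Slc10a7, with log2 fold changes of -0.27 to 0.08. The call of Slc25a36 was lost without EPZ015666 library 2 or DMSO library 1 (adjusted p = 0.0791 to 0.0899). The call of Slc35e2 was lost without EPZ015666 library 2 or 3 or DMSO library 1 or 3 (adjusted p = 0.0505 to 0.0962). The call of Slc46a1 was lost without EPZ015666 library 2 or 3 (adjusted p = 0.0631 to 0.0734). The call of Slc5a5 was lost without EPZ015666 library 2 or 3 (adjusted p = 0.0659 to 0.0767). The call of Slc25a16 was lost without EPZ015666 library 3 or DMSO library 1 or 2 (adjusted p = 0.0501 to 0.0853). The call of Slc32a1 was lost without DMSO library 2 or 3 (adjusted p = 0.0647 to 0.0901). The call of Slc37a1 was lost without EPZ015666 library 1 or 2 or DMSO library 2 or 3 (adjusted p = 0.0564 to 0.11).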

How the data were processed

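Poly-A RNA in 6 samples of MLL-ENL/NrasG12D cells, 3 treated with 5 µM EPZ015666 and 3 with DMSO for 72 h, was sequenced from stranded mRNA libraries, per the labels' protocols. Without role or order, mm10 and the tools DESeq 1.16.0, HTSeq 0.6.0, TopHat2 2.0.10 and CASAVA 1.8.2 are listed in the submitters' processing notes. The authors deposited 1 table of normalized signal for 11644 genes, read counts divided by a size factor per library, as the values themselves show. In each library 100% of them divided into whole reads by a single step (tolerance 1e-06), which gave back the reads. Size factors ran from 0.715 to 1.24. Every gene had at least 10 reads in its highest library. Depth limits low genes most.

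EPZ015666 and DMSO libraries were tested against each other in R 4.3.3 by limma 3.58.1 with a trended prior, fitted to every gene's log2 normalized count with 1 added. The test was two-sided, with Benjamini-Hochberg adjustment, a threshold of 0.05 and 4 residual degrees of freedom. Folds are ratios of mean normalized counts; log2 fold changes understate changes of low genes. On the recovered reads, edgeR 4.0.16 called 5412 genes and DESeq2 1.42.0 called 4999, beside 5418. The chi-square per degree of freedom between libraries of a group was 9.43 to 20.7, so none was counted as a duplicate. The code of the test was also run on simulated counts with few changed genes and no library set apart. Nothing about the calls reported here is drawn from that run.

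Members and lists (substrate classes, ATF4-reported and lysosomal carriers, stress genes, cell type markers, other transporters) were chosen with earlier results of these data known. Named genes were the 8 largest rises and 8 largest falls with a mean of at least 50 in the higher group and no overlap, up to 4 members a class with the smallest adjusted p and up to 2 of highest mean that did not pass, up to 4 genes of each other list, and 21 genes whatever their values. Other members named were chosen after their values were seen. Counts cover all members, of which not every one is reported here. All 196 members were matched by symbol to GENCODE M21 for coordinates and exon length. Replicate numbers in the titles were not taken as pairs, because the labels do not say whether they pair the libraries. Same-numbered libraries deviated from their group means with correlations of 0.244, 0.0719 and 0.271. For libraries of different numbers the correlations were -0.238 to -0.0233, so a pairing was not excluded. Alternatives were edgeR, DESeq2, log2 CPM with TMM factors, pseudocounts of 0.5 and 5, a minimum mean of 50, a 2-fold minimum, a replicate block and leaving out each library.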

Additional observations from a re-analysis of the deposited data

How the results depend on the processing

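Across edgeR, DESeq2, log2 CPM with TMM factors and pseudocounts of 0.5 and 5, 88 to 96 solute carrier genes passed in place of 93, and 87 to 93 were the same genes. With a 2-fold minimum 19 rose and 7 fell. With a mean of at least 50, 1 carboxylate carrier rose in place of 3, and 1 carrier of lipids, organic ions and other substrates in place of 3. With the replicate number as a block 100 passed, and 5932 of all genes, 11 other transporters rose in place of 7, and 1 ATF4-reported transporter (Slc7a11) rose in place of 0. The labels do not say whether the numbers pair the libraries, and each library correlated best with its own number. Leaving out 1 library gave 79 to 96 passing members, while calls over all genes fell to 4145 to 5346. Zinc carriers that rose numbered 2 to 6, sugar carriers that fell 1 to 2 (with Slc2a5, without EPZ015666 library 1), iron, copper, magnesium and heme carriers that fell 0 to 1, and genes that are no transporter by name and fell 0 to 1.

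Among the solute carriers named by the rule, directions turned for 9, none past the test. By edgeR, Slc16a6 had a log2 fold change of -0.0023. With 1 library left out, log2 fold changes ran from -0.017 to 0.217 for Slc45a4, -0.045 to 0.167 for Slc50a1, -0.035 to 0.085 for Slc16a6, -0.015 to 0.141 for Slc4a2, -0.059 to 0.020 for Slc35e1, -0.045 to 0.106 for Slc35a3, -0.143 to 0.041 for Slc27a4, -0.303 to 0.053 for Slc3a2 and -0.140 to 0.092 for Slc25a37. The cause was not tested. Depth limits the members with few DMSO reads.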
